A study of Drosophila melanogaster with 12 samples.

Results

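m6A enrichment in wildtype over *Mettl3* null larval brains was measured as the ratio of immunoprecipitated (meRIP) to input RNA in one genotype against the same ratio in the other. The comparison used 8 of the 12 libraries of the series: 2 wildtype meRIP, 2 wildtype input, 2 *Mettl3* null meRIP and 2 *Mettl3* null input libraries. The wildtype brains (Oregon_R) were the source of neuron-biased RNA. The *Mettl3* null brains came from larvae of the same stage that lack the methyltransferase, and their meRIP libraries hold what the antibody recovers without it. The other 4 libraries came from neuroblast-biased brains, in which *insc-Gal4* drove *UAS-aPKC-CAAX* in neuroblasts, and entered the model for its estimate of the spread. All brain lobes were dissected from L3 larvae cultured at 25C, and how many brains were pooled for a library is not given in the sources used here. Of the 17807 genes in the count table, 9918 passed the filter on low counts and were tested.

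N6-methyladenosine (m6A) is placed on nascent mRNA by a writer complex of Mettl3, Mettl14 and a set of accessory proteins, and is read by the YTH-domain proteins Ythdc1 in the nucleus and Ythdf in the cytoplasm. In flies the modification is known above all from the nervous system, from the 5′ UTRs of mRNAs and from the splicing of *Sxl*, the switch gene of sex determination. The late larval brain holds neuroblasts that are still dividing, newborn neurons that extend axons, and glia, and these cells use genes of guidance, adhesion and cell fate.

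*Mettl3* itself checked the labels. It had 22.9 and 22.6 CPM (counts corrected for library depth) in wildtype input, against 9.05 and 2.26 CPM in *Mettl3* null input, and 14.2 and 16.4 CPM in wildtype meRIP, against 3.94 and 4.28 CPM in *Mettl3* null meRIP. Both *Mettl3* null input values lay below both wildtype values, although some reads of the gene remained. Libraries held between 4220420 counts (wildtype input replicate 1) and 19689052 counts (wildtype meRIP replicate 1). Neuron markers summed to 8329 and 8210 CPM in wildtype input, against 8651 and 9085 CPM in *Mettl3* null input. None of the 12 neuron markers was at 0. Markers of salivary gland and fat body, tissues outside the brain, summed to 1266 and 1285 CPM in wildtype input, against 755 and 574 CPM in *Mettl3* null input, where 7 of 17 had 0 counts in each library. Ring gland markers summed to 243 and 222 CPM in wildtype input, against 69.6 and 67.0 CPM in *Mettl3* null input. Glial markers went the other way, with 1430 and 1421 CPM in wildtype input, against 1970 and 1870 CPM in *Mettl3* null input. The part of these differences in the ratios was not tested. In bulk RNA, fewer cells of a type and less RNA per cell cannot be told apart. The methods call the 2 libraries of a group biological replicates, and the p-values measure the spread between such libraries.

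The ratio was higher in wildtype for 518 genes and lower for 41, with an adjusted p under 0.05 in limma-voom, called here. These were 5.22% and 0.413% of the genes tested. The balance depended on the scaling: by library size alone, in place of TMM factors, 273 were called higher and 238 lower. Among the 518, the median log2 fold change (log2FC) of the ratio was 1.75, a 3.35-fold difference, with quartiles of 2.63-fold and 4.62-fold. The median over all 9918 genes was -0.18. The median ratio of CPM in meRIP to CPM in input was 3.88 in wildtype, against 1.14 in *Mettl3* null brains, for the genes called higher. In 351 of the 518 the ratio was above 1 in *Mettl3* null brains as well. Over all genes tested the median ratio was 0.923 in wildtype, against 1.02 in *Mettl3* null brains. Each library was scaled to itself, so a ratio of 1 means the share of an average transcript and not an amount of m6A.

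**Figure D1:**
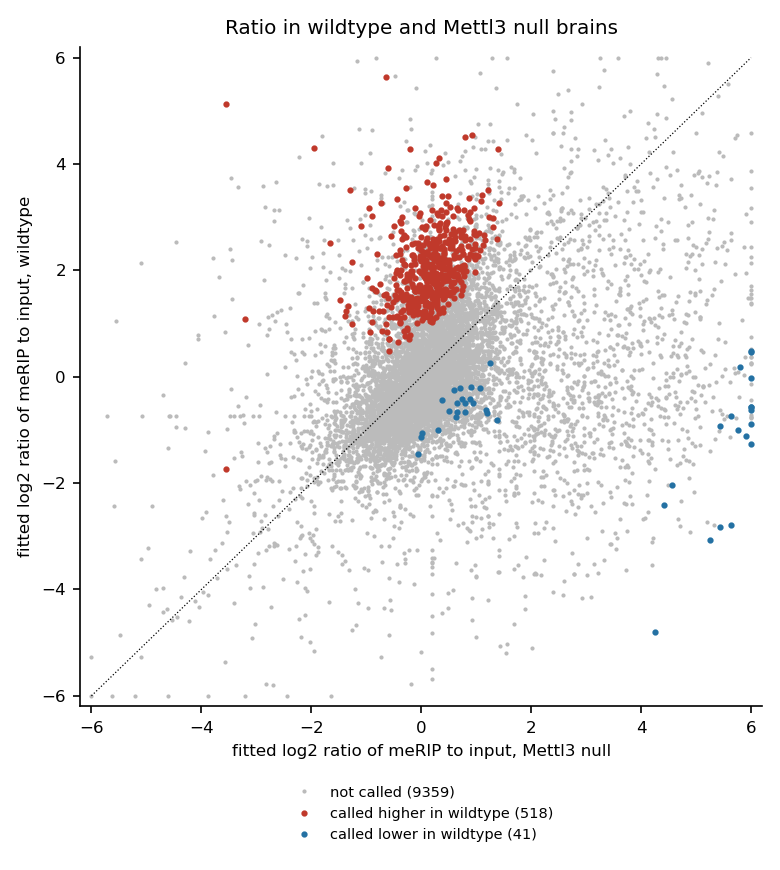
Fitted log2 ratio of meRIP to input in wildtype (vertical axis) against *Mettl3* null brains (horizontal axis), 1 point a gene for 9918 genes, with points past 6 or -6 drawn at the edge and the dotted line marking equal ratios. Most of the 518 genes called higher stand near 0 in *Mettl3* null and above 0 in wildtype, and some of the 41 called lower lie at the right edge, where *Mettl3* null input held few or no counts.

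For most genes the difference lay in the meRIP libraries. Of the 518 genes, 513 were also called higher in wildtype when the meRIP libraries alone were compared, where 16.6% of 9493 genes were called higher and 6.11% lower. In that comparison 1576 genes were called higher and 580 lower, against 896 and 2962 by library size alone. Their median log2FC was 1.70 in meRIP and -0.08 in input. In input alone, 0.138% of 9423 genes were called higher and 0.117% lower, and of the 517 enriched genes tested there 2 were higher and 2 lower in wildtype. The 5 genes not called in meRIP, named here after their values were seen, were *futsch*, *unc-13-4A*, *OtopLa*, *Pde1c* and a 28S rRNA pseudogene, *28SrRNA-Psi:CR45851*. For *futsch*, which encodes a microtubule-binding protein of axons, the ratio differed through the denominator. It had 1523 and 1995 CPM in wildtype meRIP, against 1530.0 and 1568 CPM in *Mettl3* null meRIP, while its input held 736 and 749 CPM in wildtype, against 1162 and 1199.9 CPM in *Mettl3* null brains. The pseudogene had 53.2 and 48.6 CPM in wildtype input, against 1531 and 1469 CPM in *Mettl3* null input, and its meRIP values, 123 and 90.8 CPM in wildtype, against 248 and 92.2 CPM in *Mettl3* null brains, were not higher in wildtype. In another gene, *CG14301*, both wildtype input libraries held 0 counts, and no fold is given for it.

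**Figure D2:**
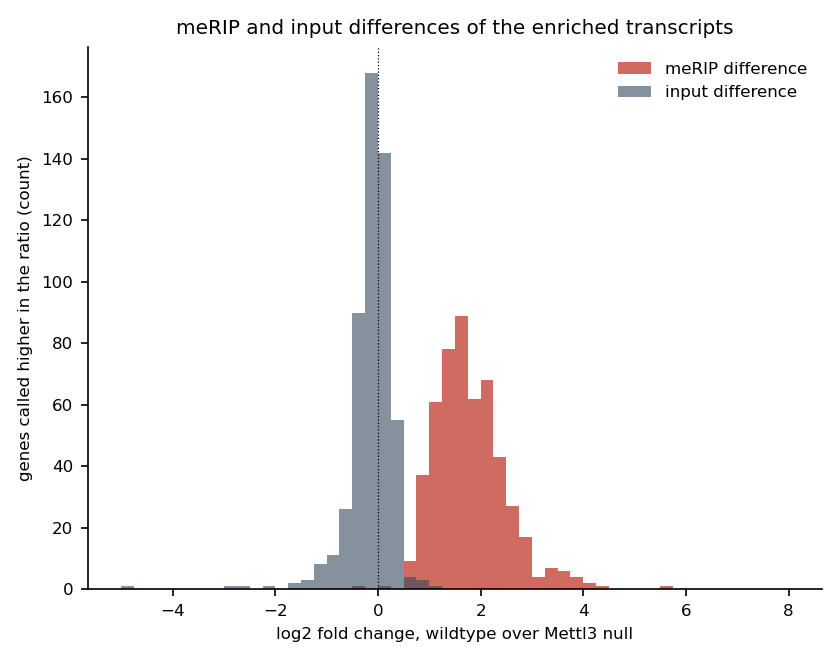
Distribution of the log2 fold change of wildtype over *Mettl3* null brains among the 518 enriched genes, in meRIP and in input libraries (genes per bin). The meRIP values centre on 1.70 and the input values on -0.08.

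The number of calls depended on single libraries. It was 1 without wildtype input replicate 2, 122 without wildtype input replicate 1, 345 and 357 without wildtype meRIP replicates 1 and 2, 314 and 224 without *Mettl3* null input replicates 1 and 2, and 95 and 391 without *Mettl3* null meRIP replicates 1 and 2. With 1 library less the median log2FC of the 518 genes was between 1.69 and 1.89 and the median SE between 0.40 and 0.46, against 0.35 with all libraries. The single gene still called without wildtype input replicate 2 was *fz*. Input replicates scattered more than meRIP replicates: over all genes tested, log2 CPM of replicates 1 and 2 differed with an SD of 0.67 in wildtype meRIP, against 1.26 in wildtype input, and of 0.63 in *Mettl3* null meRIP, against 1.65 in *Mettl3* null input.

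The transcript with the lowest p was *fz*, which encodes Frizzled, a receptor for Wnt ligands and a planar polarity protein (FBgn0001085, chromosome arm 3L from 14274343 to 14368639, BDGP6). It had 932 and 1290.1 CPM in wildtype meRIP, against 80.1 and 102 CPM in *Mettl3* null meRIP, and 104 and 159.6 CPM in wildtype input, against 153 and 176 CPM in *Mettl3* null input. The meRIP values of the 2 genotypes thus stood far apart while the input values overlapped, and the ratio was 8.45 in wildtype, against 0.553 in *Mettl3* null brains (adjusted p = 0.000786, log2FC 3.91 with an SE of 0.42). *Kr-h1*, a zinc finger factor that responds to juvenile hormone and ecdysone, had the highest wildtype ratio of the 10 genes with the lowest p that encode a protein, 16.9, against 1.38 in *Mettl3* null brains (adjusted p = 0.00104, log2FC 3.79 with an SE of 0.44). Its meRIP values were 1294 and 1387 CPM in wildtype, against 66.8 and 118 CPM in *Mettl3* null brains. Of its exonic bases, 78.6% are shared with another annotated gene, so its reads cannot be told apart from that neighbour's without strand. *Cph* (FBgn0029939), a zinc finger gene on X, reached 2475 and 2672 CPM in wildtype meRIP, against 531 and 509 CPM in *Mettl3* null meRIP (adjusted p = 0.000786, log2FC 2.53 with an SE of 0.28). Others among the lowest p were *Invadolysin*, a metalloprotease, *cdi*, a kinase of the LIM kinase and TESK group, *Orp8*, an oxysterol-binding protein, and the cell adhesion gene *Fas2*. The uncharacterized genes *CG34353* and *CG14459* had ratios of 6.82 and 10.4 in wildtype, against 0.774 and 0.73 in *Mettl3* null brains.

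Short stretches of the annotated 5′ UTRs of 6 of these genes show the AAAC core that is known from fly m6A sites. The genes are those of lowest p that encode a protein, leaving out *Kr-h1* for its shared exons. Each stretch is the first run of 30 bases with the most AAAC in the longest annotated 5′ UTR, and AAAC is in capitals. They are reference sequence of release 6 of the fly genome (NCBI), read 5′ to 3′ on the strand of the gene. They are not mapped sites, since the count table has 1 value a gene.
fz (3L:14274708-14274737, + strand): aatagcaaagtcgaattcAAACggttAAAC
Cph (X:7196817-7196846, + strand): tgacaacaacaacaAAACtgccAAACAAAC
CG34353 (3R:27905599-27905628, - strand): aagtAAACaactatcattctgAAACcAAAC
CG14459 (3L:22637768-22637797, - strand): aggctatgtAAACatatcgtctacacAAAC
Fas2 (X:4203367-4203396, - strand): gcagcgaAAACAAACtgaaattttttAAAC
Invadolysin (3R:10145037-10145066, + strand): attgggacacacccacccgaAAACaaAAAC

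The longest annotated 5′ UTR held AAAC 25 times in *Cph* (1280 bases), 24 times in *CG34353* (1279 bases), 13 times in *Fas2* (420 bases), 10 times in *Invadolysin* (733 bases) and 6 times each in *fz* (712 bases) and *CG14459* (790 bases). At least 1 AAAC was present in 99.6% of the 504 protein-coding genes called higher, against 76.4% of all 8939 tested protein-coding genes with an annotated 5′ UTR. Longer 5′ UTRs have more room for any such short word. Per kilobase of 5′ UTR there were 11.6 AAAC in genes called higher, against 9.52 in all genes, and the same bases in another order, CAAA, were more frequent too, 13.5 in genes called higher, against 10.9 in all genes. The reverse complement GTTT was rarer, 5.01 in genes called higher, against 5.97 in all genes. In the first 50 bases of the gene AAAC was present in 25.2% of the genes called higher, against 29.03% of all.

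The 5′ UTRs of the enriched transcripts were long. The median of the longest annotated 5′ UTR was 810 bases among the genes called higher, 152 bases among those called lower and 204 bases over all protein-coding genes tested. Exon length was also greater, 5336 bases against 2230 bases over all, and so was wildtype input, 124 CPM against 23.2 CPM, and a gene with more counts is called more easily. Genes with at least 50 CPM in wildtype input were therefore split by 5′ UTR length into 5 groups of like size. From the shortest to the longest group, 0.340%, 0.850%, 6.79%, 20.1% and 39.4% were called higher, with a median SE between 0.32 and 0.35 in each. Within each of 5 like groups by exon length, the genes with longer 5′ UTRs were called more often than those with shorter ones, 44.9% against 12.2% in the group of the longest transcripts and 11.6% against 0.678% in the next to shortest. This restriction was chosen after the values had been seen, and no test was run on it. By chromosome, the share called higher ran from 4.84% on 2R to 6.32% on the fourth.

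**Figure D3:**
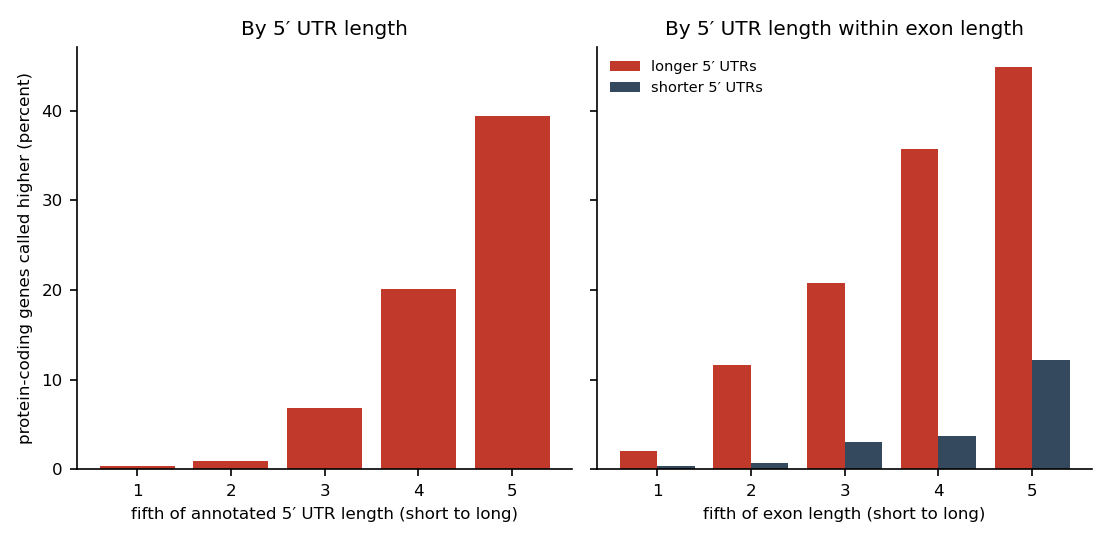
Percent of protein-coding genes with at least 50 CPM in wildtype input that were called higher, in 5 groups by annotated 5′ UTR length (left) and, within 5 groups by exon length, for the longer and the shorter 5′ UTRs (right). The share grows from 0.340% to 39.4% over the groups by 5′ UTR length, and the longer 5′ UTRs stand above the shorter ones at every exon length.

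Of 29 guidance ligands, receptors and their partners tested, 18 were called higher and none lower, with a median log2FC of 1.34, beside 5.22% called higher and a median of -0.18 over all genes. Guidance genes are well counted, so genes with at least 50 CPM in wildtype input are a closer background. Of 3021 such genes 13.4% were called higher, beside 16 of 24 guidance genes at that level. The 13.4% takes no account of length, and the median exon length of the guidance genes was 5754 bases. Of protein-coding genes at that level, 19.7% of those with 4682 to 6697 bases and 28.4% of longer ones were called higher. None of the shares set beside lists here or below is matched for 5′ UTR length, by which the share called ran from 0.340% to 39.4%. The share of the guidance genes was 66.7%, and the ecdysone list had a higher one, 72.7%. Without wildtype input replicate 2 the count was 0, and without the other libraries in turn it was 6 to 16 (6 without wildtype input replicate 1 and without *Mettl3* null meRIP replicate 1). The same omission of wildtype input replicate 2 left 1 Wnt gene, *fz*, and none of the adhesion, ecdysone, RNA-binding and neural fate genes described here. Scaled by library size alone, 12 guidance, 5 adhesion, 4 ecdysone, 7 RNA-binding, 9 neural fate, 8 Wnt and 0 BMP genes were called higher, and 2 Wnt, 1 Notch, 1 neural fate and 5 cytoskeleton genes lower. Ligands and receptors of several guidance systems were among the genes that rose. The 11 guidance genes not called included *PlexA*, *NetA*, *Eph* and *Ephrin*. *Sema1a*, a transmembrane semaphorin that acts as ligand and receptor, had 4240.2 and 5436 CPM in wildtype meRIP, against 848 and 851 CPM in *Mettl3* null meRIP, and its input was 694 and 709 CPM in wildtype, against 627 and 622 CPM in *Mettl3* null brains (adjusted p = 0.00304, log2FC 2.32 with an SE of 0.39). The secreted semaphorins *Sema2a* and *Sema2b* rose with log2FC of 1.85 and 1.79, and *PlexB*, which encodes their plexin receptor, with 1.93. In each of these genes both wildtype meRIP values lay above both *Mettl3* null values. The ratios of the genotypes did not overlap in any of the 518 genes called higher, nor, in either direction, in 71.3% of all genes tested.

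Of the midline system, the ligand gene *sli* (log2FC 0.83) and the receptor genes *robo2* (1.77) and *robo3* (1.26) rose, as did *NetB* (1.03), a netrin, and both netrin receptor genes, *fra* (1.58) and *unc-5* (1.47). *robo2* had 592 and 603 CPM in wildtype meRIP, against 201 and 204 CPM in *Mettl3* null meRIP (adjusted p = 0.00122). For *robo1*, the best known receptor of the family, the log2FC was 0.33 with an adjusted p of 0.54, and whether it differs from that of *robo2* was not tested. *drl* and *dnt*, which encode Ryk-type Wnt receptors of axons, rose with log2FC of 1.60 and 2.49. Of the receptor tyrosine phosphatases of growth cones, *Lar* had a log2FC of 2.89, *Ptp10D* of 1.53 and *Ptp99A* of 1.28. *Lar* shares 83.6% of its exonic bases with another gene. *otk* (1.84), a receptor-like pseudokinase, completed the list together with *side* and *beat-Ia*.

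Side and Beat proteins are immunoglobulin-domain partners that steer motor axons, and both belong to larger families. *beat-Ia* had 322 and 390.1 CPM in wildtype meRIP, against 49.4 and 60.4 CPM in *Mettl3* null meRIP (adjusted p = 0.00258, log2FC 2.75 with an SE of 0.45). *side* had 701 and 684 CPM in wildtype meRIP, against 137 and 179 CPM in *Mettl3* null meRIP (adjusted p = 0.00122, log2FC 2.47 with an SE of 0.34). By symbol, 7 of 13 *beat* genes, 3 of 8 *side* genes, 13 of 21 *dpr* genes, 2 of 11 *DIP* genes, 3 of 4 *Nlg* genes and 4 of 6 *kek* genes tested were called higher, and none lower. Over all genes tested 5.22% were called higher, and 13.4% of those with at least 50 CPM in wildtype input. The median wildtype input of a family ran from 27.7 CPM (*dpr*) to 131 CPM (*kek*). These families were chosen after their values had been seen. Dpr and DIP proteins bind each other on neighbouring neurites. The median log2FC was 2.09 over the *dpr* genes and 0.84 over the *DIP* genes, and *dpr2* was among the 10 largest rises, with 73.3 and 63.2 CPM in wildtype meRIP, against 4.94 and 7.42 CPM in *Mettl3* null meRIP (adjusted p = 0.00849, log2FC 4.17 with an SE of 0.85).

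**Figure D4:**
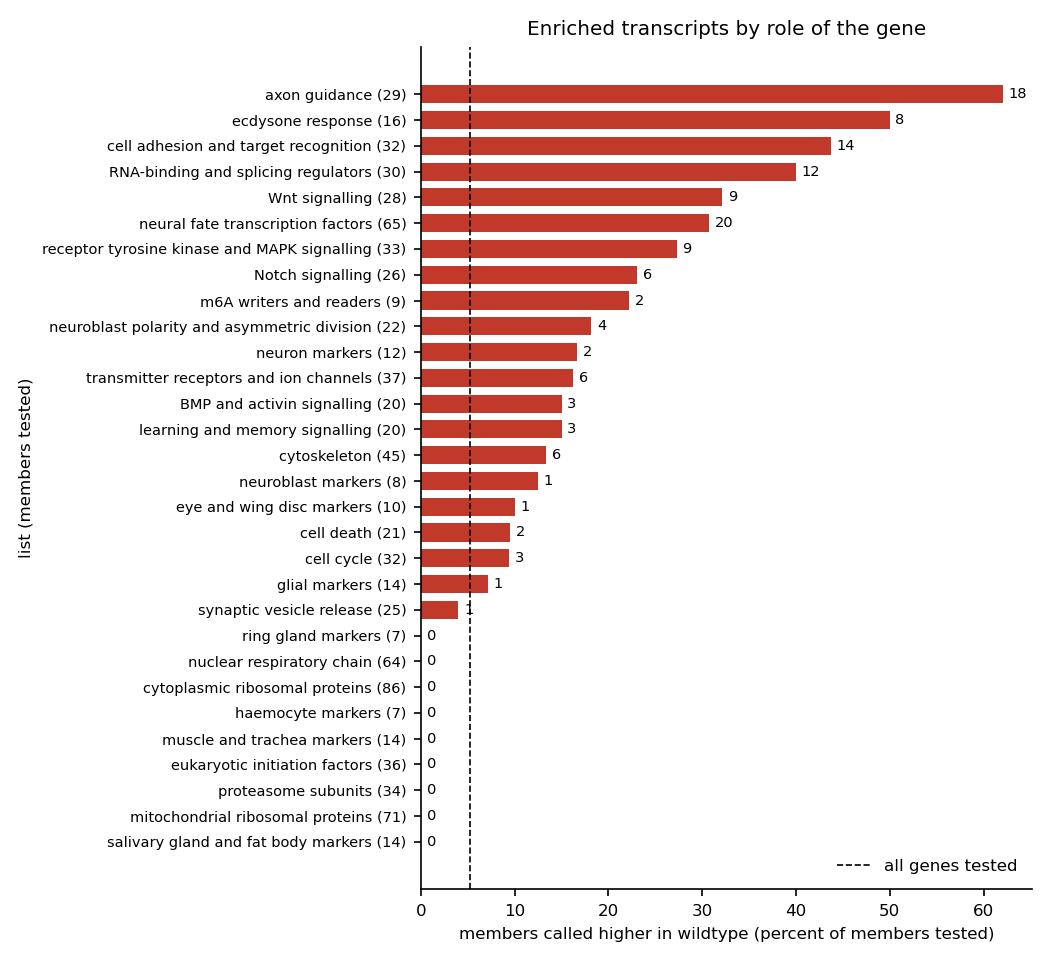
Percent of the tested members of each list of roles that were called higher in wildtype, with the number of tested members in parentheses and the number called beside each bar, and the dashed line at 5.22% for all genes tested. Axon guidance has 18 of 29, and the lists of ribosomal proteins, proteasome and respiratory chain have no gene called higher. The line is not matched to the lists for input level, transcript length or 5′ UTR length.

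Cell adhesion and target recognition had 14 of 32 genes called higher, none lower, and a median log2FC of 1.01. Over all genes 5.22% were called higher and 0.413% lower. At 50 CPM or more in wildtype input the list had 14 of 30, 46.7%, beside 13.4% of all such genes. Its median exon length was 7572.5 bases, and 28.4% of protein-coding genes with 6707 bases or more at that level were called higher. The 28.4% is not matched for 5′ UTR length, and 39.4% were called higher in the group of the longest 5′ UTRs at that level. *Fas2*, an immunoglobulin-type adhesion molecule of axon bundles, had 1891 and 2002 CPM in wildtype meRIP, against 379.5 and 436 CPM in *Mettl3* null meRIP (adjusted p = 0.00122, log2FC 2.23 with an SE of 0.29). Its input was 429.9 and 395 CPM in wildtype, against 374 and 426 CPM in *Mettl3* null brains. *CadN*, the neuronal cadherin, had 4450.0 and 5229 CPM in wildtype meRIP, against 1471 and 1555 CPM in *Mettl3* null meRIP (adjusted p = 0.00181, log2FC 1.64 with an SE of 0.25). All 4 libraries of input lay between 1542 and 1589 CPM for *CadN*. *Ten-a*, a teneurin that matches synaptic partners, rose with a log2FC of 1.78. The neuroligin genes *Nlg2*, *Nlg3* and *Nlg4* rose with 1.39, 1.40 and 1.62, and the highly spliced self-recognition gene *Dscam1* with 0.89, near the smallest difference that was called.

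Of signalling pathways, Wnt had 9 of 28 genes called higher, the receptor tyrosine kinase and MAPK list 9 of 33, Notch 6 of 26 and the BMP and activin list 3 of 20, none lower. At 50 CPM or more in wildtype input these were 47.4%, 36.4%, 45.5% and, for BMP and activin, 15.4%, which is near the 13.4% of all such genes. In the Wnt pathway the receptor genes *fz* and *fz2* (2.02), the ligand gene *Wnt4* (2.20) and the kinase genes *sgg* (1.52) and *gish* (1.75) rose (log2FC in parentheses). So did the ubiquitin ligase gene *slmb* (1.74), the antagonist *nkd* (2.27) and the transcription factor gene *pan* (1.10). The Wnt count also holds *hth* (1.77), a transcription factor gene of patterning that is counted in the neural fate list too. *fz2* had 3396 and 3939 CPM in wildtype meRIP, against 709 and 747 CPM in *Mettl3* null meRIP (adjusted p = 0.0023). The members that did not pass included *arm*, the beta-catenin of flies, at -0.53 with an adjusted p of 0.22. Of the tyrosine kinase list, the receptor genes *Egfr* (1.72) and *InR* (1.68) rose, as did the adaptor *drk* (1.58), the transcription factor genes *pnt* (1.98) and *aop* (2.09), and 3 inhibitors of EGF receptor signalling, *aos* (2.41), *sty* (1.92) and *kek1* (2.04). *jeb*, the ligand of Alk, had a log2FC of 1.32 and was called by limma alone, with an adjusted p of 0.237 by edgeR and 0.0741 by DESeq2.

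In the Notch list the receptor, a ligand, the nuclear effector and inhibitors were among the genes that rose. *N* had 1150.2 and 1261 CPM in wildtype meRIP, against 327 and 408 CPM in *Mettl3* null meRIP, and its input was 468 and 441 CPM in wildtype, against 373 and 412 CPM in *Mettl3* null brains (adjusted p = 0.00304, log2FC 1.53 with an SE of 0.26). The ligand gene *Delta* had a log2FC of 1.78, *kuz*, a protease that cleaves Notch, of 1.90, and *Su(H)*, the nuclear partner of Notch, of 1.87. *H* (1.16) and *numb* (2.38) oppose Notch. *numb*, which is also handed to 1 daughter of a dividing neuroblast, had 511 and 557 CPM in wildtype meRIP, against 109 and 138 CPM in *Mettl3* null meRIP (adjusted p = 0.00307). In the list of neuroblast polarity and asymmetric division, 4 of 22 rose: *numb*, *baz*, *dlg1* and *Wdr62*, beside 1 of 8 neuroblast markers, *klu*. At 50 CPM or more these were 19.0% and 12.5%, near the 13.4% of all such genes. With a replicate block by number, the adjusted p was 0.0616 for *H* and 0.0675 for *klu*. Of the BMP and activin list, *Dad* and *sog*, both inhibitors of BMP signalling, and the activin receptor gene *babo* rose with 1.79, 2.45 and 1.20.

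**Figure D5:**
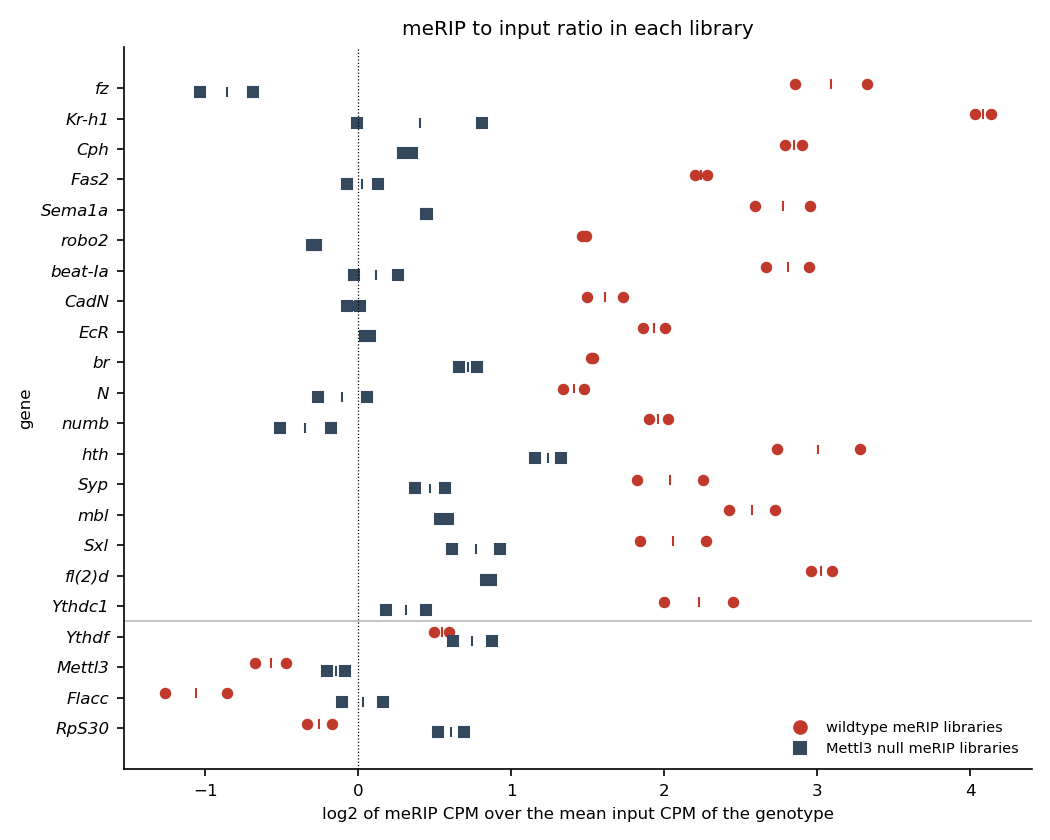
Log2 ratio of each meRIP library to the mean of the 2 input libraries of its genotype (log2 CPM with a prior count of 2) for 18 genes called higher, above the grey line, and 4 others. Circles are wildtype and squares *Mettl3* null libraries, ticks are means, and for the 18 genes both circles lie to the right of both squares. The genotypes did not overlap in any of the 518 genes called higher, nor, in either direction, in 71.3% of all genes tested.

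Over all genes 5.22% were called higher and 0.413% lower, and 13.4% were called higher at 50 CPM or more in wildtype input. Among transcription factors and other regulators of neural fate at that level, 17 of 38, 44.7%, rose. Of the whole list of these genes, 20 of 65 rose and none fell, with a median log2FC of 0.87. They include genes of successive times and places of the brain: *Imp* (1.30), *chinmo* (1.33), *Syp* (1.58), *mamo* (1.44) and *br* (0.81) of temporal identity, and *toy* (1.96), *hth* (1.77), *dac* (1.83), *oc* (1.62), *ap* (2.01), *Lim1* (2.02) and *SoxN* (1.14) of regional or neuronal identity. *Syp*, an RNA-binding protein of old neuroblasts and late-born neurons, had 9436 and 12724 CPM in wildtype meRIP, against 3159 and 3616 CPM in *Mettl3* null meRIP (adjusted p = 0.0136, log2FC 1.58 with an SE of 0.35). *Imp*, its counterpart of young neuroblasts, had 1377 and 1780.4 CPM in wildtype meRIP, against 784 and 880.2 CPM in *Mettl3* null meRIP (adjusted p = 0.0494, log2FC 1.30 with an SE of 0.37), close to the threshold. *toy*, a Pax6 homologue on the fourth chromosome, had 658 and 633 CPM in wildtype meRIP, against 171 and 175 CPM in *Mettl3* null meRIP, with an input of 165 and 166 CPM in wildtype, against 172 and 174 CPM in *Mettl3* null brains (adjusted p = 0.00288, log2FC 1.96 with an SE of 0.32).

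The response to ecdysone, the steroid that times metamorphosis, had 8 of 16 genes called higher and none lower, with a median log2FC of 1.26 and 8 of 11 at 50 CPM or more. Over all genes 5.22% were called higher and 0.413% lower, and 13.4% were called higher at 50 CPM or more. The median exon length of the list was 8956.5 bases, and 28.4% of protein-coding genes with 6707 bases or more at that level were called higher. That share is not matched for 5′ UTR length either. The receptor gene *EcR* had 1226 and 1354 CPM in wildtype meRIP, against 326 and 334 CPM in *Mettl3* null meRIP, and an input of 340.2 and 334 CPM in wildtype, against 288 and 346 CPM in *Mettl3* null brains (adjusted p = 0.00132, log2FC 1.87 with an SE of 0.27). The coactivator gene *tai* (1.56), the early genes *br* (0.81), *Eip74EF* (1.21), *Eip75B* (1.06) and *Eip63E* (2.08), the nuclear receptor gene *Hr4* (1.61) and *Kr-h1* completed the 8 (log2FC in parentheses). *br*, with 9886 and 9997 CPM in wildtype meRIP, against 4615 and 4245 CPM in *Mettl3* null meRIP, had the smallest log2FC of all genes called higher and was also called in input, with 3638 and 3265 CPM in wildtype, against 2787 and 2596 CPM in *Mettl3* null brains.

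RNA-binding proteins and splicing regulators had 12 of 30 genes called higher, none lower, and a median log2FC of 0.83. The shares over all genes were 5.22% higher and 0.413% lower. With at least 50 CPM in wildtype input, 12 of 24 were called higher, beside 13.4% of all such genes. The list is of long and well counted transcripts, with medians of 9556 exonic bases and 406 CPM in wildtype input. Among protein-coding genes with 6707 bases or more at that level, 28.4% were called higher. This share is not matched for 5′ UTR length. *mbl*, the muscleblind splicing factor, had 3508 and 4316 CPM in wildtype meRIP, against 889 and 856 CPM in *Mettl3* null meRIP (adjusted p = 0.00304, log2FC 2.01 with an SE of 0.34). *pum*, a translational repressor that acts in learning and in dendrites, rose with a log2FC of 1.78, and the splicing or stability factors *sm*, *Rbfox1*, *heph*, *bru3*, *Rbp6*, *msi* and the Elav relative *fne* with 1.53, 1.63, 1.33, 1.53, 1.33, 1.49 and 1.41, in that order. *Sxl*, whose splicing is the best known target of the fly writers, had 1378 and 1857 CPM in wildtype meRIP, against 648 and 807 CPM in *Mettl3* null meRIP, and an input of 401 and 368 CPM in wildtype, against 421 and 427 CPM in *Mettl3* null brains (adjusted p = 0.0162, log2FC 1.30 with an SE of 0.30). Groups did not overlap, as is true of the ratios in 71.3% of all genes tested, and even in *Mettl3* null brains the *Sxl* ratio was 1.72.

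Of 9 transcripts of the m6A machinery, 2 were called higher and 1 lower, beside 5.22% and 0.413% of all genes tested. At 50 CPM or more in wildtype input, 2 of 6 were called higher, beside 13.4% of all such genes. Whether the 9 differ from each other was not tested. *fl(2)d*, the fly WTAP of the writer complex, had 829.6 and 915 CPM in wildtype meRIP, against 289 and 284 CPM in *Mettl3* null meRIP, and an input of 111 and 103 CPM in wildtype, against 157 and 160.2 CPM in *Mettl3* null brains (adjusted p = 0.0041, log2FC 2.18 with an SE of 0.39). *Ythdc1*, the nuclear reader, had 1128 and 1538 CPM in wildtype meRIP, against 254 and 306 CPM in *Mettl3* null meRIP (adjusted p = 0.00471, log2FC 1.91 with an SE of 0.35), although its longest annotated 5′ UTR, of 136 bases, has 0 AAAC. Both rose. *Flacc*, another subunit of the complex, was called lower, with 83.1 and 62.9 CPM in wildtype meRIP, against 145 and 175 CPM in *Mettl3* null meRIP (adjusted p = 0.0449, log2FC -1.07 with an SE of 0.30). This call did not hold by edgeR (adjusted p = 0.0543), with RLE factors (0.0611), with a replicate block by number (0.0558) or without any 1 of the 8 libraries. The remaining 6 did not pass the test: log2FC were 0.68 for *Mettl14*, -0.69 for *vir*, 0.16 for *nito*, -0.25 for *Hakai*, -0.21 for the cytoplasmic reader *Ythdf* and -0.43 for *Mettl3*, with adjusted p between 0.301 and 0.896.

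Genes of the mature neuron were a mixed group. Of 37 transmitter receptors and ion channels, 6 rose, with a median log2FC of 0.85 over the list: *Dop2R*, a dopamine receptor (2.63), *5-HT1A*, a serotonin receptor (1.96), the Shaker potassium channel gene *Sh* (1.53), the nicotinic receptor subunits *nAChRalpha6* (1.65) and *nAChRalpha7* (1.34), and the pacemaker channel gene *Ih* (1.31). A further 14 of the list had an unadjusted p under 0.05 with a higher wildtype ratio. For *5-HT1A* meRIP and input moved apart: 203 and 209 CPM in wildtype meRIP, against 100.01 and 100.5 CPM in *Mettl3* null meRIP, but 44.4 and 43.9 CPM in wildtype input, against 74.7 and 94.0 CPM in *Mettl3* null input. Of 25 genes of synaptic vesicle release only *Syx1A*, the plasma membrane SNARE of the synapse, was called, with 1746 and 2026 CPM in wildtype meRIP, against 449 and 463 CPM in *Mettl3* null meRIP (adjusted p = 0.00307, log2FC 2.21 with an SE of 0.38). All 25 were at or above 50 CPM in wildtype input, and the median of the list was -0.12, close to that of all genes. In the cytoskeleton list 6 of 45 rose, among them the actin regulators *ena* (1.17) and *Frl* (1.89), and in the cell cycle list 3 of 32, *CycE* (1.65), *stg* (1.70) and *mnb* (2.44). At 50 CPM or more both lists were at 15.8%, near the 13.4% of all such genes, and by library size alone the cytoskeleton list had 1 gene called higher and 5 lower. The receptors and channels were at 20.8%. Median exon lengths were 6298 bases in the cytoskeleton list, 6530 in the receptors and channels and 2659.5 in the cell cycle list. Of protein-coding genes at that level, 19.7% of those with 4682 to 6697 bases were called higher, and 6.27% of those with 2213 to 3327. Neither edgeR (adjusted p = 0.0674) nor DESeq2 (0.0510) called *Dop2R*.

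Housekeeping lists held no gene called higher. Among 86 cytoplasmic ribosomal protein genes none was called higher by limma, edgeR or DESeq2 and 3 were higher at an unadjusted p under 0.05, with a median log2FC of -0.07 and 82 genes at 50 CPM or more in wildtype input. The same count of 0 by each tool held for 71 mitochondrial ribosomal protein genes, 34 proteasome subunits and 64 nuclear respiratory chain genes, with 0, 0 and 2 higher at an unadjusted p under 0.05. Mitochondrial ribosomal genes were weakly counted, with a median of 9.66 CPM in wildtype input. Of protein-coding genes between 5.13 and 16.3 CPM there only 1.02% were called higher, so that their count of 0 is near the background. The other 3 lists are of short transcripts, with median exon lengths of 921.5 (ribosomal), 1398.5 (proteasome) and 830.5 bases (respiratory chain). Of protein-coding genes with 288 to 2210 bases at 50 CPM or more, 1.02% were called higher, so these counts of 0 are near the background too. Of 36 translation initiation factors none was called higher by limma or edgeR and 1 by DESeq2, with 1 higher at an unadjusted p under 0.05, and *eIF2beta* and *eIF5B* fell. Among markers of other tissues, 1 of 10 eye and wing disc markers, *ptc*, and 1 of 14 glial markers, *wrapper*, were called higher, and *wrapper* not by edgeR (adjusted p = 0.0517) or with a replicate block by pool (0.0593). None of 14 salivary gland and fat body, 7 haemocyte, 7 ring gland and 14 muscle and trachea markers was called higher by any of these tools, and none had a higher ratio at an unadjusted p under 0.05. Their median wildtype input was low, 17.9, 24.4, 16.3 and 9.21 CPM in that order. Of protein-coding genes 1.02% were called higher between 5.13 and 16.3 CPM, and 2.62% between 16.3 and 37.1 CPM. These counts of 0 are thus near the background as well. In the lists with no called gene, the lowest adjusted p was 0.0644 for *Rpn1* of the proteasome (log2FC -0.80), 0.0717 for *ATPsynE* of the respiratory chain (1.25), 0.186 for *Fbp2* of the fat body (-5.66), 0.319 for *Ppn* of haemocytes (1.24), 0.275 for *dib* of the ring gland (-4.54) and 0.0831 for *Tm2* of muscle (-4.76).

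Of the 41 genes with a lower ratio in wildtype, 19 had 0 counts in a wildtype or *Mettl3* null input library, and of the 18 of these tested in meRIP none was called lower there. *mRpL52*, the 1 mitochondrial ribosomal gene called lower, is of this kind, with 10.4 and 11.3 CPM in wildtype input, against 2.32 and 0 CPM in *Mettl3* null input, and neither edgeR (adjusted p = 0.235) nor DESeq2 (0.0957) called it. The other 22 had at least 10 counts in each input library, with log2FC between -2.19 and -0.81, and 21 of them were called lower in meRIP. *XRCC1*, a scaffold of DNA repair, had the largest fall, with 18.1 and 17.6 CPM in wildtype meRIP, against 32.1 and 43.5 CPM in *Mettl3* null meRIP, and an input of 27.3 and 33.3 CPM in wildtype, against 15.1 and 12.5 CPM in *Mettl3* null brains (adjusted p = 0.0122, log2FC -2.19 with an SE of 0.48). *eIF2beta*, a subunit of the factor that brings initiator tRNA, had 97.0 and 106 CPM in wildtype meRIP, against 241 and 347 CPM in *Mettl3* null meRIP (adjusted p = 0.0204, log2FC -1.30 with an SE of 0.31). *RpS30*, a protein of the small ribosomal subunit, had 279.7 and 249.5 CPM in wildtype meRIP, against 567 and 638 CPM in *Mettl3* null meRIP (adjusted p = 0.0469, log2FC -0.84 with an SE of 0.23). The next largest falls were of *FBgn0036660* (-1.87), *Rbm13* (-1.80), *CG5554* (-1.46) and *Brd8* (-1.43). With a replicate block by pool the adjusted p was 0.0887 for *FBgn0036660* and 0.0587 for *Rbm13*. The others include the chaperone partner *Cdc37*, the nucleolar *Nopp140*, the chromatin genes *Mi-2* and *wde*, the replication genes *Mcm3* and *Gnf1*, and the small heat shock gene *Hsp27*.

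By size, the largest rises among well counted genes were mostly of transcripts with low input. The non-coding *lncRNA:CR45758* (3L from 22960930 to 22961668) had 237 and 263 CPM in wildtype meRIP, against 4.12 and 10.1 CPM in *Mettl3* null meRIP, and an input of 9.03 and 14.3 CPM in wildtype, against 15.2 and 28.2 CPM in *Mettl3* null brains (adjusted p = 0.0023, log2FC 6.24 with an SE of 0.98). A second long non-coding RNA, *lncRNA:CR46348*, also of 3L, had 248 and 262 CPM in wildtype meRIP, against 19.4 and 14.7 CPM in *Mettl3* null meRIP (adjusted p = 0.00122, log2FC 4.49 with an SE of 0.56). In all, 11 of 339 lncRNA genes tested, 3.24%, were called higher, beside 5.22% of all genes, and the 2 shares were not matched for input level. *T48*, which acts in apical constriction of the embryo, *CG43850*, *CG10702*, the allatostatin receptor gene *AstA-R1* and *PRL-1*, a phosphatase gene that shares 73.1% of its exonic bases with a neighbour, also belonged to the 10 largest rises. For *AstA-R1* the input values overlapped, with 17.5 and 1.94 CPM in wildtype, against 8.68 and 15.3 CPM in *Mettl3* null brains, and the wildtype replicates stood far apart. Neither edgeR (adjusted p = 0.331) nor DESeq2 (0.237) called it.

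The wildtype ratios were then set against those of neuroblast-biased brains, to ask whether the enrichment was particular to the neuron-biased genotype. Of 9918 genes none was called higher (0%) or lower (0%) in wildtype by limma, with 674 at an unadjusted p under 0.05. The edgeR test called 0 higher and 2 lower, and DESeq2 called 11 higher and 29 lower. This comparison shares the 4 wildtype libraries with the enrichment. Among the 518 enriched genes, 27 had an unadjusted p under 0.05, 5.21% beside 6.80% of all genes, and 15 of the 27 were higher in wildtype. The median log2FC between the genotypes over the 518 was 0.09, with quartiles of -0.19 and 0.34 and a median SE of 0.37, and the lowest adjusted p was 0.395. Over all 9918 genes the median was -0.20, and 112 of the 674 were higher in wildtype. The 3 genes with the lowest p of that difference, of all those called in enrichment in either direction, were *CG46301* (log2FC 1.38, SE 0.27, adjusted p = 0.395) and *snoRNA:Psi28S-291* (log2FC 1.60, SE 0.33, adjusted p = 0.442), both enriched, and *CG5554* (log2FC -1.19, SE 0.30, adjusted p = 0.692), of the genes called lower. None of these passed, not even *CG46301*, with an estimate of 1.38 on the log2 scale from 2 libraries a group. A p that misses the threshold does not show that the ratios of the genotypes are alike.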

How the data were processed

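Brain RNA was immunoprecipitated with an anti-m6A antibody (meRIP) or kept as input, depleted of ribosomal RNA and sequenced on a HiSeq. Per the labels and the methods, the authors trimmed reads with Trimmomatic, mapped them with STAR to the Ensembl BDGP6 annotation and deposited raw counts per gene. Kallisto is named for input libraries, and their values are whole counts. Strand, duplicate handling and versions are not given in the sources used here. Totals ran from 4220420 to 19689052 counts a library over the 8 compared, and errors cover the spread between 2 libraries a group.

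Counts were fitted with limma-voom (limma 3.58.1, R 4.3.3) with TMM factors and a minimum count of 10 in filterByExpr, on all 12 libraries with a mean for each of 6 groups. The enrichment was the interaction of library kind and genotype, with Benjamini-Hochberg adjustment over all genes tested and a threshold of 0.05. The meRIP and input libraries were also fitted alone. The code was tested on simulated data. Alternatives were edgeR 4.0.16 (quasi-likelihood), DESeq2 1.42.0, other scalings, filters and sample sets, sample weights, a replicate block, a 2-fold threshold and leaving out each library.

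CPM are the counts divided by the TMM-scaled library size. Gene models came from the Ensembl 115 annotation, in which 97 of the 17807 gene IDs were not found. Of the table's genes, 3772 had 0 counts in every library. The members of the lists and the lists themselves were chosen with earlier results of these data known, so their counts are not independent support. Genes named were the 10 largest rises and 5 largest falls among called genes with 10 or more counts in each input library and no overlap between genotypes, the 10 lowest adjusted p, the called members of each list (up to 5 with values), the m6A machinery and *Sxl*, the gene of lowest p in each list with no call, and the 3 called genes of lowest p against neuroblast-biased brains. Exceptions, such as *robo1* and *arm*, were added after their values were seen.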

Additional observations from a re-analysis of the deposited data

How the results depend on the processing

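The number of calls was not stable. The 518 enriched genes were chosen for a higher ratio in these same libraries. A kept direction without 1 library is thus close to fixed in advance and is no independent support. All 518 kept a positive log2FC in fits without any 1 of the 8 libraries. Over those fits the number called higher was 1 to 391 and called lower 0 to 35. Called higher and lower were 273 and 238 scaled by library size alone, 904 and 55 with only the compared groups in the fit, and 8 and 0 when a 2-fold change was tested. Called lower were 26 by edgeR, 118 by DESeq2, 65 with upper-quartile factors and 75 with no filter. Scaling by library size alone shifted the median of all genes to -0.70, upper-quartile factors to -0.30, against -0.18 with TMM.

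In meRIP alone, 896 were called higher and 2962 lower by library size, 389 and 11 past a 2-fold change, 1188 lower with upper-quartile factors and 872 lower with a replicate block by pool. Leaving out a library gave 973 to 1212 higher and 101 to 573 lower. In input alone, edgeR called 2 higher and 2 lower, DESeq2 68 and 75, sample weights 39 and 38, the mean-count filter 25 and 19, only the compared groups 24 and 19, and a 2-fold change 1 and 1. No filter gave 20 higher, and library size and RLE factors 18 lower each. Leaving out a library gave 5 to 11 higher and 2 to 5 lower. Against neuroblast-biased brains DESeq2 called 11 higher and 29 lower, edgeR 2 lower and no filter 10 lower, and leaving out a library 0 in either direction.

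Input and meRIP RNA of a genotype came from the same brain RNA, divided between them, but no source says that equal replicate numbers mark the same RNA. Deviations of equal numbers correlated at -0.00055 in wildtype and 0.051 in *Mettl3* null brains, so no pairing was measurable. A replicate block by pool called 610 higher and 37 lower, and a replicate block by number 562 and 46. Of 151 named genes called, 8 lost the call with one or the other block (*H*, *klu*, *FBgn0036660*, *Rbm13*, *Flacc*, *wrapper*, *mRpL52* and *AstA-R1*). Of the same 151, 38 were not called by edgeR, 5 not by DESeq2 and 4 by neither (*jeb*, *Dop2R*, *mRpL52* and *AstA-R1*). Among named genes the sign turned for *Mettl3* with the block by pool (0.059) and without *Mettl3* null input replicate 2 (-1.42 to 0.56 over the libraries left out), for *Ythdf* without the same library (-0.43 to 0.018), for *nito* by library size alone (-0.36) and for *Hakai* without wildtype meRIP replicate 2 (-0.66 to 0.17), none of which passed the test. Where no cause is given, the cause was not tested. AAAC shares moved to 25.2% of genes called higher, against 29.03% of all, in the first 50 bases of the gene.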

Other observations

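Of 20 genes of learning and memory signalling, 3 rose, *dnc*, the cAMP phosphodiesterase, *pum* and *Pkc53E*, and of 21 cell death genes 2 rose, *puc* and *hep*, a phosphatase and a kinase of the JNK pathway. None of either list fell. These were 15.0% and 9.52% of the genes tested, beside 5.22% of all. At 50 CPM or more in wildtype input they were 15.4% (2 of 13) and 25.0% (2 of 8), beside 13.4% of all such genes, so the share of the memory list was near the background. The median log2FC was 0.67 and 0.72, beside -0.18 over all genes.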
